A study of Mus musculus with 6 samples.

Results

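The genes described here are 40 mitotic spindle and kinetochore genes, measured by RNA-seq in mouse satellite cells (SCs), the stem cells of skeletal muscle. They were taken by gene name from the deposited expression table of 55416 genes, as a set of mitotic kinases, kinesins, kinetochore, spindle and cytokinesis genes, and their values in these samples did not enter the rule. All 40 names were found, 0 of them repeated. The study asked how loss of lactoferrin (*Ltf*) bears on SC proliferation. It compared 3 WT libraries with 3 *Ltf*-KO libraries. WT samples carried an intact *Ltf* gene. *Ltf*-KO samples came from a systemic knockout, made by a CRISPR-Cas9 deletion in C57/BL6N zygotes and so present in every cell type of the animal and not only in muscle. Per the study's methods, SCs of both genotypes were sorted from digested hind leg muscle as cells negative for Sca1 and CD11b and positive for CD34 and α7-integrin. The stains listed there for the sort are for CD31, CD45, Sca1 and α7-integrin, with none for CD11b or CD34. The sorted cells were then grown on Matrigel in serum medium with basic fibroblast growth factor and no further treatment, and were harvested on day 4. Mice were 8 to 10 weeks old where the methods do not specify another age, and the labels give none. They also do not say whether the 3 libraries of a genotype came from separate animals or were pooled, so the p-values below measure only the spread between these samples, which may be technical.

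Mitosis separates the replicated chromosomes in the last part of the cell cycle. CDK1 with cyclin B drives entry, Aurora and Polo-like kinases build and correct the spindle, kinetochores tie chromosomes to microtubules, and the APC/C ubiquitin ligase starts anaphase by marking securin and cyclin B for destruction. Transcripts of these genes are low in resting cells, rise in late S phase and G2 and peak around mitosis, so they are widely read as markers of cycling cells. Resting SCs in muscle hold little of them, and activated SCs that proliferate as myoblasts hold much more. Many of these genes share promoter elements: the CHR (cell cycle genes homology region), bound by the MuvB core of the DREAM complex in resting cells and with B-MYB and FOXM1 in G2, and CCAAT boxes bound by NF-Y.

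To show that shared sequence, the 120 bases before the RefSeq start site are printed for 5 genes that carry the readings of the set. They are its most abundant gene, its APC/C activator *Cdc20*, its APC/C-linked E2 enzyme *Ube2c* and its 2 classical chromosome markers. They are taken from the RefSeq promoter table on GRCm38.p6 and read 5′ to 3′ along the gene. Capitals mark each CHR core TTTGAA and each CCAAT box on either strand, so TTCAAA and ATTGG are marked as well. The submitters' processing notes name GRCm39 for the expression values, and the positions below belong to the sequence table only.
*Cdk1*, chr10:69352913-69353032, minus strand: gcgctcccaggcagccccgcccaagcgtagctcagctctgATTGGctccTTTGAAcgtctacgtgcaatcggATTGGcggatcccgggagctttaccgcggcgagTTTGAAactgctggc
*Top2a*, chr11:99024190-99024309, minus strand: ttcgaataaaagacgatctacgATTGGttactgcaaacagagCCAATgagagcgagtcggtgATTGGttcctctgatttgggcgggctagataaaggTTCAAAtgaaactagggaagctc
*Mki67*, chr7:135716380-135716499, minus strand: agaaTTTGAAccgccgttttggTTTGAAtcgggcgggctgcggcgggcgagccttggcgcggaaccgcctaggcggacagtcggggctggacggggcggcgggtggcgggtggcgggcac
*Cdc20*, chr4:118437344-118437463, minus strand: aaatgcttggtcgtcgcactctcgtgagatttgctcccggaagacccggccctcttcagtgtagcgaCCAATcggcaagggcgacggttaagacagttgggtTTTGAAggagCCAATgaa
*Ube2c*, chr2:164769809-164769928, plus strand: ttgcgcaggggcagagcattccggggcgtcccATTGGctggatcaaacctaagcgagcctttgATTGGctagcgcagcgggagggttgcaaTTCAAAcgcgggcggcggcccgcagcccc

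In these 120 bases *Cdk1* held 2 CHR and 2 CCAAT matches and *Top2a* held 1 and 3. *Cdc20* and *Ube2c* each held 1 CHR and 2 CCAAT matches, while *Mki67* held 2 CHR matches and 0 CCAAT matches. The full RefSeq window covers 250 bases before to 50 bases after the start, and windows were given for 35 of the 40 genes (all but *Aurkb*, *Cdc25c*, *Incenp*, *Kif20a* and *Tpx2*). In its full window *Mki67* held CCAAT matches further upstream, at -188, -166 and -141 from the start. TTTGAA on either strand occurred in 26 of the 35 (74.3%), against 20.2% of the 27025 genes with a window and 17.9% of all 32851 windows. CCAAT on either strand occurred in 27 (77.1%), against 41.1% of genes and 37.4% of windows. Both occurred in 22 of the 35 (62.9%), against 7.97% of genes. At least 2 CCAAT boxes were present in 19 of the 35 (54.3%), against 13.3% of genes. Among 25 S-phase genes with a window, 3 (12%) held TTTGAA and 16 (64%) held CCAAT, and among 15 muscle differentiation genes the counts were 1 and 6. Among 42 other mitotic genes with a window, 23 (54.8%) held TTTGAA, 30 (71.4%) held CCAAT and 19 (45.2%) held both, so that neither motif was particular to these genes. These are descriptions of letters in a window, not of bound sites, and 1 pair of matches of the 2 motifs overlapped.

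**Figure D1:**
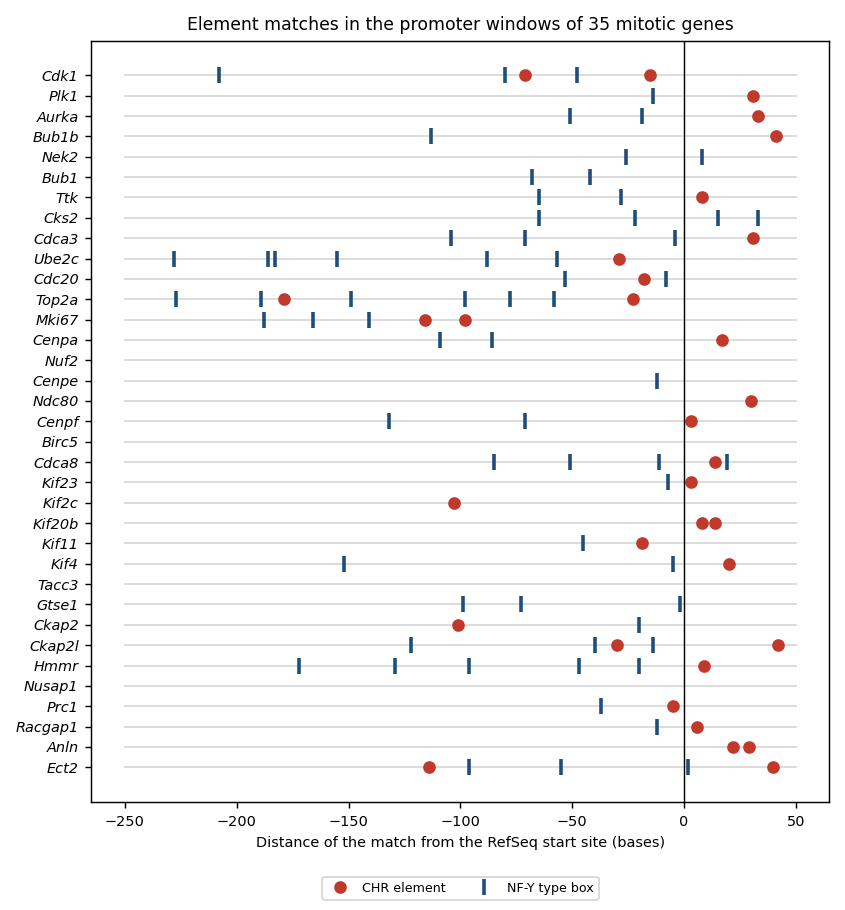
Positions of CHR matches (TTTGAA or its complement, circles) and NF-Y type boxes (CCAAT or its complement, bars) in the promoter windows of the 35 genes with a RefSeq window, with distance from the start site in bases on the horizontal axis and the start at 0. Of the 33 CHR matches 26 lie within 50 bases of the start, and of the 67 CCAAT matches 51 lie in the 150 bases before it.

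The CHR matches had a median position of base 6 after the start, and 19 of the 33 lay after it, whereas the CCAAT matches had a median position of 65 bases before the start (-65). Neither motif was found in the windows of *Nuf2*, *Birc5*, *Nusap1* and *Tacc3*, which says only that these letters are not in those windows.

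The values are the authors' TPM (a transcript abundance: reads per gene length, scaled to the same total in every library), so levels can be compared between genes per length, but how many reads underlie a value is unknown. Columns summed to 993650 to 994356 TPM, and 12828 to 12951 genes reached 1 TPM per library. Pearson's r across genes (no independent replicates) was 0.973 to 0.978 between libraries of the same genotype and 0.972 to 0.977 between genotypes. The targeted gene *Ltf* was listed at 0.12, 0.02 and 0.02 TPM in WT and 0.02, 0.03 and 0 TPM in *Ltf*-KO, near the floor in both, so it does not check the labels here. The defining markers of the labelled cell type were present: *Pax7*, the satellite cell transcription factor, was at 36.6 to 43.3 TPM and *Myod1*, the myoblast regulator, at 748 to 816 TPM in every library. The leukocyte gene *Ptprc* was at 0 to 0.16 TPM, the endothelial gene *Pecam1* at 1.02 to 2.71 TPM and the fibroblast gene *Pdgfra* at 1.00 to 1.90 TPM. Higher values were listed for *Col3a1* (88.0 to 118 TPM) and *Col1a2* (13.3 to 19.9 TPM) of the fibroblast list. *Acta2* (409 to 593 TPM) and *Cspg4* (30.8 to 41.1 TPM) of the smooth muscle and pericyte list were higher too. The other genes of these lists lay lower in every library, from 0 (*Dpt* and *Kcnj8*) to 9.32 TPM (*Col1a1*). Genes of these lists, *Pdgfra* apart, were named after their values were seen, and which cells held their transcripts was not tested.

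All 40 mitotic genes were well expressed in both genotypes, and none passed the test between them. Their mean levels ran from 13.3 TPM (*Cdc25c*) to 354 TPM (*Cdk1*), with a median of 63.1 TPM, and all 40 passed the filter of a mean of at least 1 TPM. With limma on log2(TPM + 1) over the 12956 genes tested, 0 of the 40 had a Benjamini-Hochberg adjusted p under 0.05, against 0% of all genes tested. At an unadjusted p under 0.05 there were also 0 of 40, against 3.78% of all genes. Genotypes that do not overlap were found for 0 of 40, against 8.46% of all genes. Fold changes are on the log2(TPM + 1) scale, *Ltf*-KO over WT, which understates changes of low genes. They ran from -0.12 (*Cdca3*) to 0.12 (*Aurkb*), with a median of -0.012, against a median of 0.011 over all genes tested. Of the 40, 24 (60%) were lower in *Ltf*-KO by sign, against 44.3% of all genes. Changes smaller than 0.1 on this scale made up 38 of 40 (95%), against 69.2% of all genes tested, 78.6% of those at 10 to 100 TPM and 91.6% of those at 100 TPM or more. The sign of the members' median turned without WT library 1 (0.016) or *Ltf*-KO library 2 (0.022), and without WT library 2 the median was near 0 (4.5e-06). An unadjusted p under 0.05 arose for *Aurkb* without WT library 1 (0.17) and for *Birc5* without WT library 3 (-0.16), while 0 of 40 passed the adjusted test with any library left out. In bulk RNA, fewer cycling cells and less of each transcript per cycling cell cannot be told apart.

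The 95% limma intervals show which differences the 6 libraries leave possible. The median half-width was 0.143 on the log2 scale, against 0.208 over all genes tested. The intervals of 6 genes reached past a 1.2-fold difference in a direction: *Aurkb*, *Birc5*, *Cdca3*, *Cdc25c*, *Cenpe* and *Kif23*. The lowest bound was 0.807-fold (*Cdca3*) and the highest 1.27-fold (*Kif23*), each for a single gene and not adjusted over the set. A p that misses the threshold does not show that the genotypes had equal levels, and since TPM sets every library to the same total, a change in all RNA per cell cannot be seen.

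**Figure D2:**
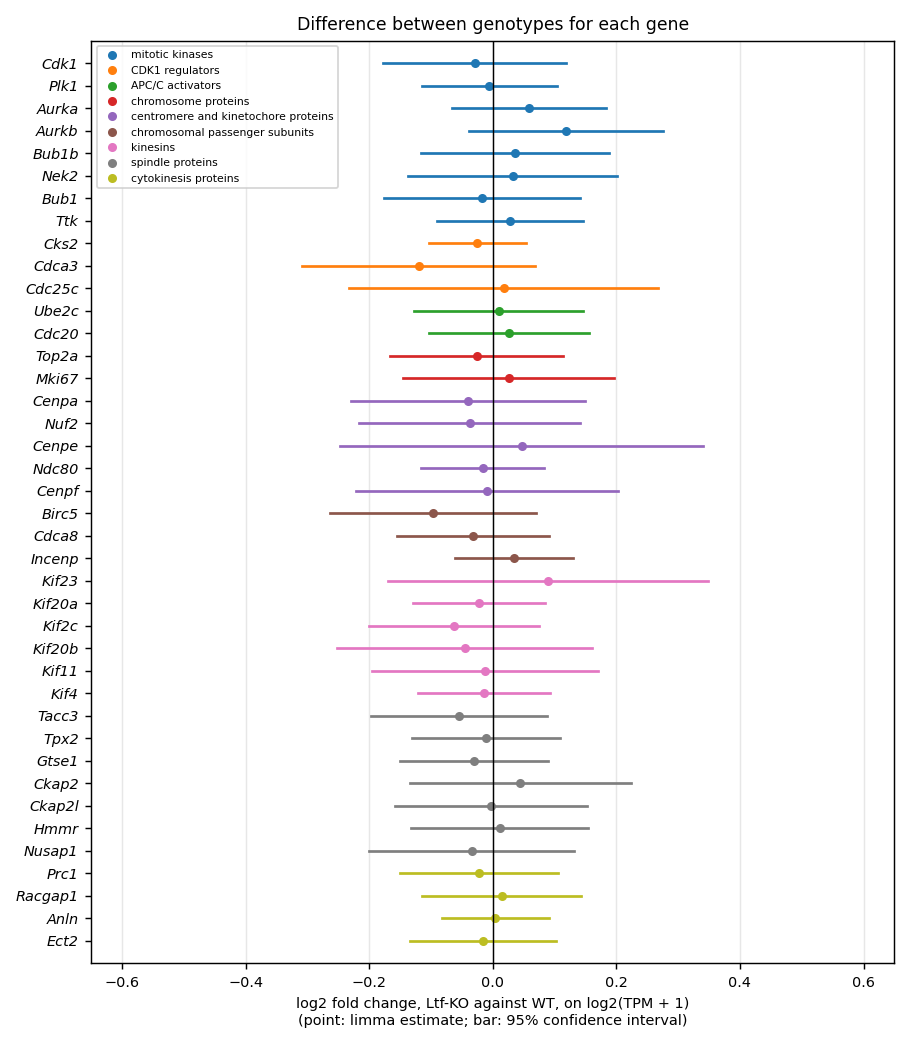
Difference between genotypes for each of the 40 genes, as log2 fold change of *Ltf*-KO over WT on log2(TPM + 1) with 95% limma intervals, ordered by role. Every interval includes 0, and the points run from -0.12 (*Cdca3*) to 0.12 (*Aurkb*).

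The mitotic kinases set the order of events in mitosis. *Cdk1*, whose product is the kinase that starts mitosis, was the most abundant gene of the set and stood at the 97.0 percentile of tested genes. It measured 379, 360.2 and 333 TPM in WT and 342, 335 and 373 TPM in *Ltf*-KO. The genotypes overlapped over nearly their whole range, and the log2 fold change was -0.030 (95% interval -0.178 to 0.119, limma adjusted p = 0.999). *Plk1*, the Polo-like kinase of centrosome maturation and mitotic exit, measured 100.2, 96.8 and 92.3 TPM in WT and 92.9, 98.8 and 96.3 TPM in *Ltf*-KO. Its change was -0.0059 (-0.115 to 0.103), with all 3 *Ltf*-KO values inside the WT range. *Aurkb*, the kinase of the chromosomal passenger complex that corrects faulty microtubule attachments, measured 61.5, 55.7 and 54.4 TPM in WT and 60.7, 66.3 and 59.4 TPM in *Ltf*-KO. The highest WT library lay above 2 of the 3 *Ltf*-KO libraries. *Aurkb* had the lowest p of the set, with a log2 fold change of 0.12 ± 0.065 (SE; interval -0.038 to 0.276), an unadjusted limma p of 0.116 and an adjusted p of 0.999.

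*Aurka*, the Aurora kinase of the spindle poles, averaged 72.5 ± 3.45 TPM in WT and 75.6 ± 3.16 TPM in *Ltf*-KO (SD, n = 3 each, as for all pairs of means below). The checkpoint kinases hold back anaphase until every kinetochore is attached. *Bub1b*, which encodes BUBR1 of the mitotic checkpoint complex, averaged 54.4 ± 3.30 and 55.8 ± 3.11 TPM. *Bub1*, which brings the checkpoint proteins to kinetochores, averaged 27.8 ± 0.65 and 27.5 ± 2.16 TPM. *Ttk*, the MPS1 kinase at the top of that pathway, averaged 17.9 ± 0.595 and 18.2 ± 0.089 TPM. *Nek2*, the kinase that parts the centrosomes, averaged 36.0 ± 2.55 and 36.9 ± 2.29 TPM. Of the 8 kinases, 3 had a lower and 5 a higher mean log2 value in *Ltf*-KO, between -0.030 and 0.12, and none passed the test.

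The regulators of CDK1 spanned most of the range of levels. *Cks2*, the small subunit that docks substrates on CDK1, averaged 221 ± 4.81 TPM in WT and 217 ± 3.83 TPM in *Ltf*-KO. *Cdc25c*, the phosphatase that removes the inhibitory phosphates from CDK1, was the least abundant gene of the 40 and still stood at the 45.0 percentile of tested genes. It measured 13.8, 14.0 and 11.8 TPM in WT and 13.8, 11.7 and 14.8 TPM in *Ltf*-KO, so that both the lowest and the highest value belonged to *Ltf*-KO libraries. Its log2 fold change was 0.018 (interval -0.232 to 0.267). *Cdca3*, the trigger of mitotic entry that helps to degrade the CDK1 inhibitor WEE1, had the largest negative change of the 40. It measured 76.5, 64.6 and 62.6 TPM in WT and 63.6, 60.5 and 62.3 TPM in *Ltf*-KO. The WT mean of 67.9 ± 7.51 TPM was raised by 1 WT library, while the other two lay close to the *Ltf*-KO libraries, and the change was -0.12 (interval -0.309 to 0.069).

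The 2 genes grouped as APC/C activators, the activator *Cdc20* and the E2 enzyme *Ube2c*, were among the most abundant of the set, and neither passed the test. *Cdc20*, which turns on the APC/C at anaphase, measured 169, 164 and 153 TPM in WT and 158, 163 and 173 TPM in *Ltf*-KO, with overlapping ranges. The change was 0.027 (interval -0.103 to 0.156, limma adjusted p = 0.999). *Ube2c*, the E2 enzyme that starts ubiquitin chains on APC/C substrates, averaged 255 ± 14.7 and 257 ± 13.6 TPM, with a change of 0.0093 (interval -0.128 to 0.147). A list of 16 further APC/C genes that are not members, the subunits with the co-activator *Fzr1* and the E2 enzyme *Ube2s*, had a median change of 0.028 and 0 at an unadjusted p under 0.05.

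The 2 chromosome proteins are the usual proliferation markers. *Mki67*, which encodes Ki-67 of the mitotic chromosome surface, measured 61.5, 60.3 and 54.1 TPM in WT and 60.8, 55.2 and 63.0 TPM in *Ltf*-KO. The lowest value was a WT and the highest an *Ltf*-KO library, and the change was 0.026 ± 0.071 (SE; interval -0.145 to 0.197, limma adjusted p = 0.999). *Top2a*, the topoisomerase that untangles sister chromatids, measured 210.3, 199.6 and 189 TPM in WT and 197, 184 and 207 TPM in *Ltf*-KO. Its genotypes overlapped as well, with a change of -0.026 (interval -0.167 to 0.114).

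**Figure D3:**
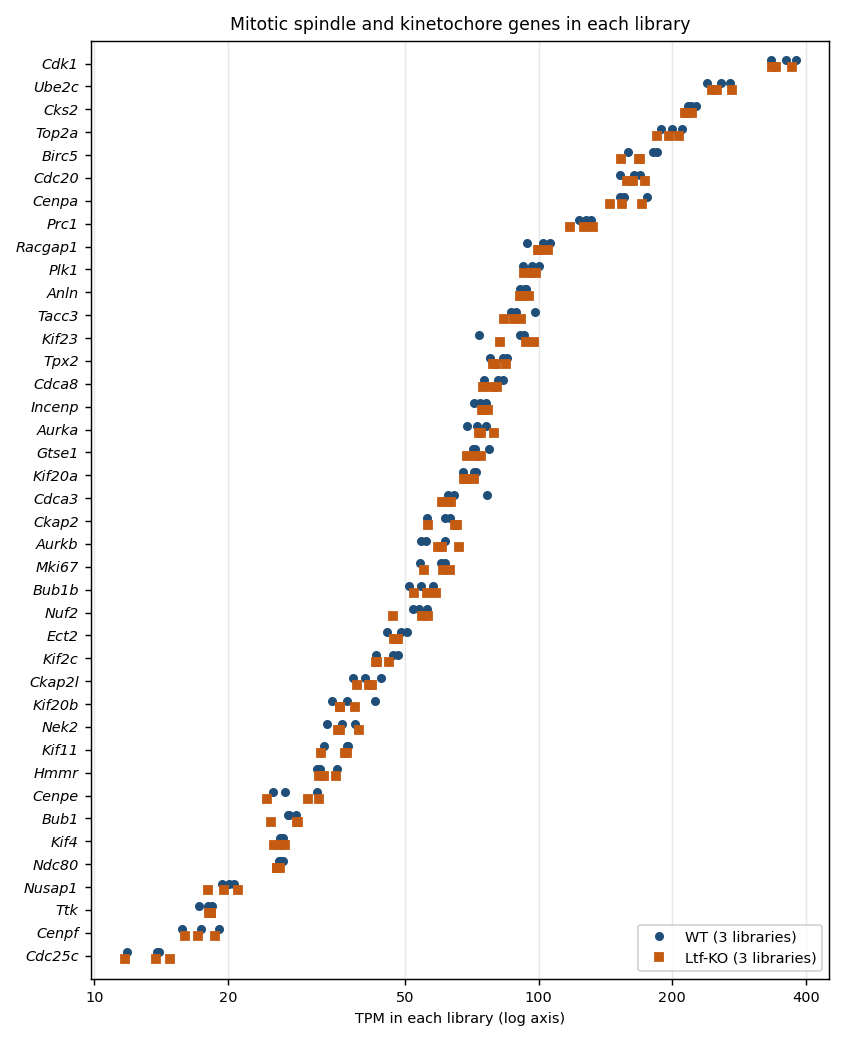
TPM of the 40 genes in each of the 6 libraries, on a log axis and ordered by mean TPM, with WT and *Ltf*-KO libraries in separate colours. The 2 colours overlap for every gene, from *Cdk1* near 354 TPM down to *Cdc25c* near 13.3 TPM.

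At the centromere, *Cenpa*, the histone H3 variant that marks it, averaged 161 ± 12.7 TPM in WT and 157 ± 13.2 TPM in *Ltf*-KO. *Ndc80* and *Nuf2* encode partner subunits of the NDC80 complex, which grips microtubule ends. *Ndc80* was the steadiest gene of the set, at 26.2, 26.6 and 26.0 TPM in WT and 26.2, 25.8 and 25.7 TPM in *Ltf*-KO, a coefficient of variation within genotypes of 1.04%. *Nuf2* averaged 53.9 ± 1.91 and 52.6 ± 4.97 TPM. The ratio of *Nuf2* to *Ndc80* TPM within a library was 2.06 ± 0.073 in WT and 2.03 ± 0.19 in *Ltf*-KO. *Cenpf*, a large kinetochore protein, averaged 17.4 ± 1.67 and 17.3 ± 1.33 TPM. *Cenpe*, the kinetochore motor that brings chromosomes to the spindle equator, varied most, with a coefficient of variation of 12.9%. It measured 31.7, 26.9 and 25.3 TPM in WT and 32.1, 24.5 and 30.3 TPM in *Ltf*-KO, and its change of 0.046 had an interval of -0.248 to 0.341. Of these 5 genes 4 were lower and 1 higher by sign, and none passed the test.

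The passenger complex couples Aurora B to its scaffold INCENP and to the targeting subunits survivin and borealin. *Birc5*, which encodes survivin, measured 185, 181 and 159 TPM in WT and 169, 154 and 168 TPM in *Ltf*-KO. Both higher values were WT, but the third WT library lay within the *Ltf*-KO range, and the change was -0.097 (interval -0.264 to 0.069). *Cdca8*, which encodes borealin, averaged 79.8 ± 3.90 and 78.0 ± 2.92 TPM, and *Incenp* 73.9 ± 2.40 and 75.6 ± 1.25 TPM. Within a library the ratio of *Aurkb* to *Incenp* TPM was 0.774 ± 0.029 in WT and 0.822 ± 0.059 in *Ltf*-KO. The ratio of *Birc5* to *Incenp* was 2.37 ± 0.122 in WT and 2.16 ± 0.089 in *Ltf*-KO. In a two-sided exact permutation test over the 6 libraries the latter reached p = 0.1, the smallest that 3 against 3 allow. That p says only that the genotypes did not overlap, and the ratios shown were picked after their values were seen. For *Birc5* to *Incenp* the lowest WT ratio was 2.229 (library 3) and the highest *Ltf*-KO ratio 2.228 (library 3). The ratio of *Tpx2* to *Aurka*, the spindle activator and its kinase, was 1.12, 1.14 and 1.12 in WT and 1.07, 1.09 and 1.07 in *Ltf*-KO, also with an exact permutation p of 0.1. Over the 6 ratios computed, Benjamini-Hochberg adjusted values were 0.3 to 0.9, and with 3 against 3 libraries no ratio could have passed 0.05.

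Among the kinesins, which move along or take apart microtubules, 5 of 6 were lower and 1 higher in *Ltf*-KO by sign, with none past the test. *Kif11*, the motor that pushes the spindle poles apart, averaged 35.7 ± 2.49 TPM in WT and 35.4 ± 2.61 TPM in *Ltf*-KO. *Kif2c*, the depolymerase at centromeres, averaged 46.1 ± 2.66 and 44.0 ± 1.68 TPM, and *Kif4*, the chromosome arm motor, 26.4 ± 0.189 and 26.1 ± 0.75 TPM. The motors of the central spindle were *Kif20a* at 70.5 ± 2.57 and 69.4 ± 1.96 TPM, *Kif20b* at 38.1 ± 4.38 and 36.7 ± 1.66 TPM, and *Kif23*. *Kif23*, whose product forms centralspindlin with RACGAP1, measured 90.9, 92.9 and 73.4 TPM in WT and 81.8, 97.5 and 93.8 TPM in *Ltf*-KO. The lowest WT and the lowest *Ltf*-KO value each lay apart from the others of their genotype, and the change was 0.090 (interval -0.169 to 0.348, the highest upper bound of the set).

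The cytokinesis proteins cut the cell in the end. *Racgap1*, the partner of *Kif23*, averaged 101 ± 6.14 TPM in WT and 102 ± 2.95 TPM in *Ltf*-KO, and *Ect2*, the exchange factor it recruits to activate RhoA, 48.4 ± 2.52 and 47.8 ± 0.551 TPM. *Prc1*, the microtubule bundler of the central spindle, averaged 128 ± 4.17 and 126 ± 7.51 TPM. *Anln*, the anillin scaffold of the contractile ring, averaged 92.6 ± 1.42 and 92.9 ± 2.11 TPM. The changes of these 4 genes lay between -0.023 and 0.015.

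Of the 7 spindle proteins, 5 were lower and 2 higher by sign, between -0.055 and 0.044. *Tacc3*, which stabilises kinetochore fibres, averaged 91.2 ± 5.95 TPM in WT and 87.7 ± 3.81 TPM in *Ltf*-KO, and *Tpx2*, which activates Aurora A, 81.9 ± 3.88 and 81.2 ± 2.92 TPM. *Gtse1*, a microtubule tip protein of G2, averaged 73.4 ± 3.39 and 71.8 ± 2.67 TPM, and *Nusap1*, which bundles spindle microtubules, 20.0 ± 0.647 and 19.6 ± 1.55 TPM. *Hmmr*, a spindle assembly factor, averaged 33.1 ± 1.91 and 33.3 ± 1.49 TPM. *Ckap2* and *Ckap2l*, related microtubule proteins, averaged 60.3 ± 3.65 and 62.2 ± 5.06 TPM, and 41.0 ± 3.02 and 40.9 ± 1.63 TPM. None of the 7 passed the test.

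Between certain libraries of the same genotype, most of the 40 genes differed in the same direction. WT library 1 held the highest value of 17 of the 40 genes and *Ltf*-KO library 3 of 10, while WT library 3 held the lowest of 22 and *Ltf*-KO library 2 of 14. Over all genes tested, the share for which a library was highest ran from 13.6% to 21.5%, and lowest from 14.1% to 20.8%. The median deviation of the 40 genes from their own mean over the 6 libraries was 0.056, 0.018 and -0.068 on the log2 scale in WT and 0.0059, -0.049 and 0.033 in *Ltf*-KO, whereas the medians over all tested genes stayed between -0.014 and 0.0086. The pattern was not particular to the 40 genes. Medians of 50 other mitotic genes were 0.025, 0.00061 and -0.045 in WT and -0.0024, -0.032 and 0.021 in *Ltf*-KO. Those of 30 S-phase genes were 0.052, 0.012 and -0.020 in WT and -0.014, -0.0051 and -0.029 in *Ltf*-KO. WT library 1 was highest for 13 of these 30, but their median was not higher in *Ltf*-KO library 3 than in library 2. WT library 1 exceeded WT library 3 for 38 of the 40, against 46.1% of all genes tested, and *Ltf*-KO library 3 exceeded library 2 for 30, against 46.3%; these library pairs were picked after their values were seen. Summed over the 40 genes, TPM was 3545, 3414 and 3195 in WT and 3336, 3279 and 3458 in *Ltf*-KO. For single genes the median coefficient of variation within genotypes was 5.59%, against 7.97% over all genes tested, whose median level was lower (16.0 TPM). At 10 to 100 TPM it was 5.78% for these genes and 6.29% for all, and at 100 TPM or more 5.53% and 3.80%.

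**Figure D4:**
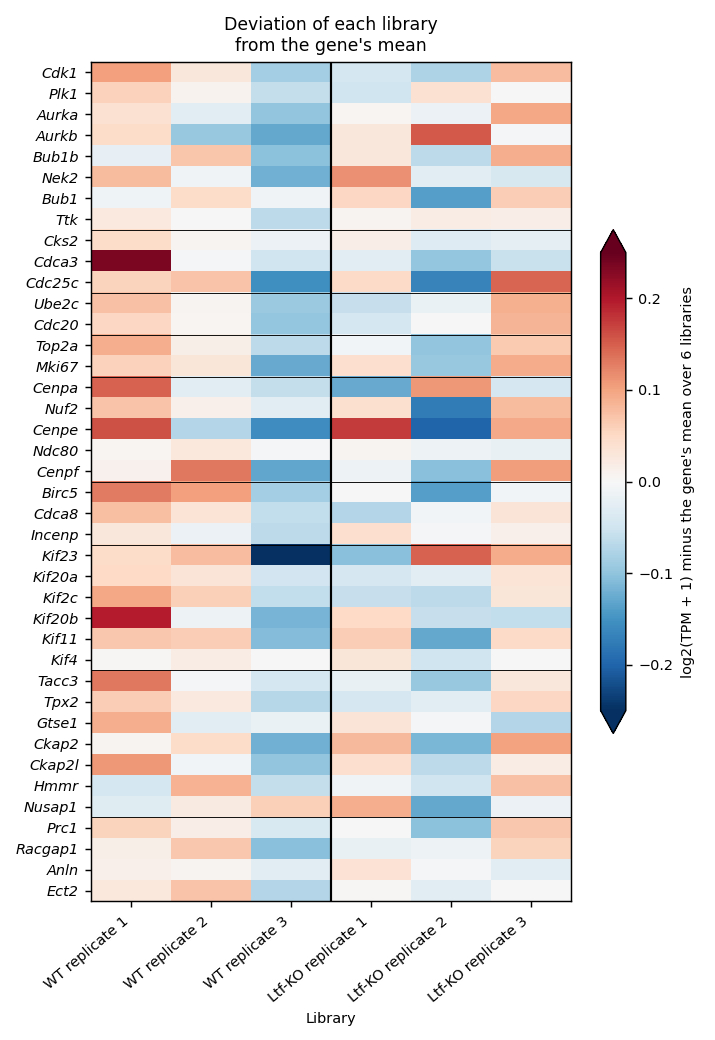
Deviation of each of the 40 genes from its own mean over the 6 libraries, on the log2(TPM + 1) scale, with libraries as columns and genes by role as rows. WT library 3 and *Ltf*-KO library 2 are below the mean for most genes (above it for 2 and 5 of 40), and WT library 1 is above it for 36.

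Levels of markers of other cells differed between these libraries too, and their part in the pattern was not tested. The summed TPM of 8 endothelial markers was 10.3, 7.98 and 19.4 in WT and 18.2, 19.6 and 9.45 in *Ltf*-KO, and the sum of 6 Schwann cell markers 19.7, 26.0 and 31.4 in WT and 26.8, 28.8 and 23.1 in *Ltf*-KO. Both sums were higher in WT library 3 and *Ltf*-KO library 2, where the mitotic medians were lowest, than in WT library 1 and *Ltf*-KO library 3. In *Ltf*-KO library 1 the endothelial sum was 18.2 TPM while the mitotic median was above 0 (0.0059). The sum of 10 immune markers was 14.2, 6.88 and 7.88 in WT and 5.47, 8.12 and 5.31 in *Ltf*-KO, with 5 of the 10 listed at 0 in at least 1 library. Smooth muscle and pericyte markers summed to 513, 535 and 451 TPM in WT and 582, 502 and 632 TPM in *Ltf*-KO. That sum, most of which was *Acta2*, was lower in WT library 3 and *Ltf*-KO library 2 than in WT library 1 and *Ltf*-KO library 3. Of the other tested genes of the list, *Abcc9* went the same way as *Acta2*. *Cspg4* and *Pdgfrb* went the opposite way, as the endothelial and Schwann cell sums did. Fibroblast markers summed to 116, 123 and 119 TPM in WT and 154, 134 and 118 TPM in *Ltf*-KO, and most of that sum was *Col3a1*. The 6 tested fibroblast genes had median deviations of -0.312, -0.145 and 0.021 in WT and 0.250, 0.310 and -0.113 in *Ltf*-KO. These medians were higher in WT library 3 and *Ltf*-KO library 2 than in WT library 1 and *Ltf*-KO library 3. All 6 were higher in *Ltf*-KO by sign, with a median change of 0.248. Of the tested markers in these lists, 1 of 5 endothelial and 1 of 4 smooth muscle and pericyte genes had an unadjusted p under 0.05, against 3.78% of all genes. For fibroblast, immune and Schwann cell genes it was 0 of 6, 0 of 3 and 0 of 6. The genes called were *Egfl7* and *Pdgfrb*, both higher in *Ltf*-KO and named after their values were seen. Neither passed the adjusted test (limma adjusted p = 0.999 for each).

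The 18 muscle differentiation genes had median deviations of -0.155, 0.191 and -0.225 in WT and 0.0082, -0.241 and 0.418 in *Ltf*-KO, and *Ltf*-KO library 3 was highest for all 18. *Myog*, the regulator of myoblast differentiation, measured 319, 410.3 and 293 TPM in WT and 360.4, 266 and 508 TPM in *Ltf*-KO. The mitotic and differentiation medians had the same sign in 5 of the 6 libraries, the exception being WT library 1, where the mitotic median was the highest of the 6 and the differentiation median was below 0. All 18 differentiation genes were higher in *Ltf*-KO by sign, with a median of 0.142, but 0 had an unadjusted p under 0.05 and the groups overlapped for each. That direction rested on *Ltf*-KO library 3: without it 13 of the 18 were lower and 5 higher, with a median of -0.022, in a fit added after seeing the data. The 10 satellite cell and myoblast markers had a median change of 0.0079.

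**Figure D5:**
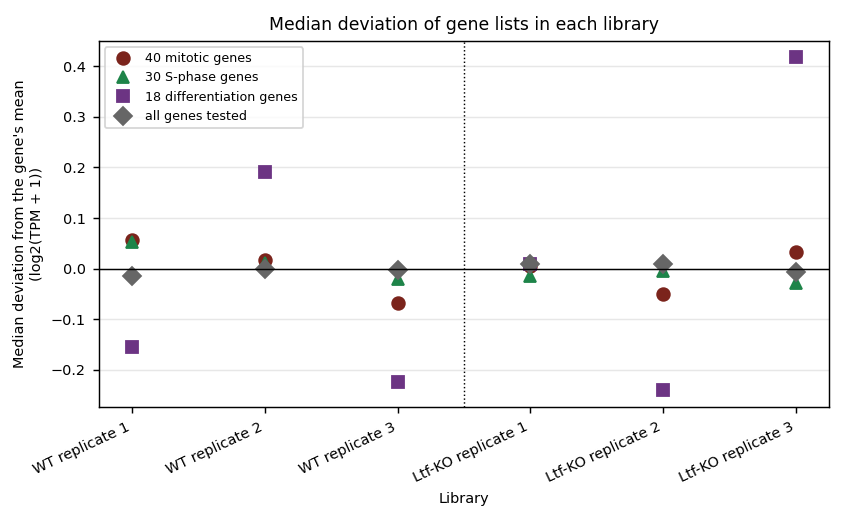
Median deviation from the mean over 6 libraries, on the log2(TPM + 1) scale, of the 40 mitotic genes and of the comparison lists in each library. The mitotic median runs from -0.068 in WT library 3 to 0.056 in WT library 1, and the differentiation median from -0.241 to 0.418.

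Other genes of mitosis and its control were read from the same fit. Of 50 other mitotic genes, 1 was lower and 0 were higher at an unadjusted p under 0.05, with a median of -0.011. The genotypes did not overlap for 3 of the 50, of which 2 had lower and 1 had higher *Ltf*-KO values. The gene past the unadjusted threshold was *Smc4*, a condensin subunit that compacts chromosomes. It measured 94.4, 95.1 and 94.0 TPM in WT and 89.1, 82.0 and 88.2 TPM in *Ltf*-KO, with no overlap, and its change was -0.13 ± 0.043 (SE, limma adjusted p = 0.999). It missed the unadjusted threshold with the replicate number as a block and without WT library 1, WT library 2 or *Ltf*-KO library 2. Among 15 regulators of mitotic transcription, 0 passed either test, the median was -0.020, and the genotypes overlapped for all. The list had 16 genes, of which *Lin54*, the MuvB subunit that binds the CHR, was not analysed here. Of 30 S-phase genes, 1 was lower and 0 were higher at an unadjusted p under 0.05, with a median of -0.031 for the list. Its genotypes did not overlap for 5 genes, against 8.46% of all genes, and all 5 were lower in *Ltf*-KO: *Mcm2*, *Mcm5* and *Mcm6* of the replicative helicase, the sliding clamp gene *Pcna*, and *Ccne2*, the first 4 being named for this after their values were seen. The gene past the unadjusted threshold was *Ccne2*, a cyclin E of the G1/S transition, at 35.3, 37.1 and 35.5 TPM in WT and 33.5, 30.6 and 30.5 TPM in *Ltf*-KO. Its change was -0.18 ± 0.054 (SE, limma adjusted p = 0.999). With a library left out the change of *Ccne2* ran from -0.23 to -0.16. A share of 1 in 30 or 1 in 50 is near the 3.78% of all genes, and neither *Smc4* nor *Ccne2* passed the adjusted test. The 5 of 30 S-phase genes without overlap make a share above the 8.46% of all genes, which was not tested.

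Beyond the rule, the deposited table's own annotation places the members in overlapping compartments. The GO term cell division lists 18 of the 40, against 2.19% of tested genes, and midbody, the bridge between dividing daughters, lists 17, against 1.07%. Kinetochore lists 9 and mitotic cytokinesis 12, while the KEGG pathway Cell cycle lists only 7: *Bub1*, *Bub1b*, *Cdc20*, *Cdc25c*, *Cdk1*, *Plk1* and *Ttk*. The pathway annotation therefore leaves out the kinesins, the passenger complex and the cytokinesis genes whose values are given above.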

How the data were processed

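RNA-seq was done on 3 WT and 3 *Ltf*-KO SC libraries. The authors deposited TPM values of 55416 genes with 2 decimals, with GO and KEGG annotation beside them. The unit was read from the values, as the columns sum to nearly the same total. The submitters' processing notes name GRCm39, and the aligner, counter and annotation release are not given in the sources used here. TPM keeps no depth, so precision was judged from the replicate spread, and no count test was run.

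Groups came from the sample labels. The 12956 genes averaging 1 TPM or more were fitted as log2(TPM + 1), pseudocount 1, with lmFit and eBayes with trend in limma 3.58.1 (R 4.3.3), two-sided, with Benjamini-Hochberg adjustment over all genes tested, a threshold of 0.05 and 95% intervals. Ratios were compared by exact permutation tests. The fit was tested on simulated data. RefSeq promoter windows (GRCm38.p6) were searched for TTTGAA and CCAAT on both strands, with all windows of a gene counted once, and positions taken from its first window.

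The members and lists were chosen with earlier results of these data known. All 40 members are accounted for. Values per library are given for *Mki67*, *Top2a*, *Cdk1*, *Plk1*, *Aurkb*, *Cdc20* and the members with the highest and lowest mean. The rule added members at an unadjusted p under 0.05 or without overlap (0 of each). *Cdca3*, *Birc5*, *Kif23*, *Cenpe*, *Ndc80* and the ratios shown were picked after their values were seen. Outside the set, *Ltf*, defining cell type markers and genes of the mitotic, regulator and S-phase lists at an unadjusted p under 0.05 are named by rule. *Col3a1*, *Col1a2*, *Col1a1*, *Acta2*, *Cspg4*, *Abcc9*, *Dpt*, *Kcnj8*, *Egfl7*, *Pdgfrb*, *Mcm2*, *Mcm5*, *Mcm6* and *Pcna* were named after their values were seen. *Fzr1*, *Ube2s* and *Lin54* are named only to describe their lists. Alternatives were a pseudocount of 0.1, no filter, a mean of at least 10 TPM, quantile and median-of-ratios scaling, no variance trend, the replicate block and leaving out each library.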

Additional observations from a re-analysis of the deposited data

How the results depend on the processing

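The counts of mitotic genes past the adjusted and the unadjusted threshold stayed at 0 of 40 under a pseudocount of 0.1, no filter, a mean of at least 10 TPM, quantile scaling, median-of-ratios scaling, no variance trend and the replicate block, and the count without overlap stayed at 0 under both filters and both scalings, the other alternatives not bearing on it. With 1 library left out, 0 to 1 of the 40 had an unadjusted p under 0.05 (*Birc5* at -0.16 without WT library 3, *Aurkb* at 0.17 without WT library 1), 0 passed the adjusted test, and 0 to 5 did not overlap (4 without WT library 1, 5 without WT library 3, 5 without *Ltf*-KO library 1, 2 without *Ltf*-KO library 2), where fewer samples make separation easier. The members' median was -0.024 with quantile and -0.022 with median-of-ratios scaling. With a library left out it ran from -0.038 (without WT library 3) to 0.022 (without *Ltf*-KO library 2). It was also above 0 without WT library 1 (0.016) and near 0 without WT library 2 (4.5e-06), so its sign rests on single libraries. Over all genes tested, the number at an unadjusted p under 0.05 was 890 with no filter (26553 genes tested) and 281 at a mean of at least 10 TPM (8072 tested), 380 with the replicate block, and 446 to 613 with a library left out; the adjusted count was 0 to 7 with a library left out (7 without WT library 2, 6 without *Ltf*-KO library 1, 3 without *Ltf*-KO library 3, 2 without WT library 3, 2 without *Ltf*-KO library 2) and 0 otherwise. Of the genes called at the unadjusted level, 46.9% were lower in *Ltf*-KO, 60.0% with quantile and 55.8% with median-of-ratios scaling. *Smc4* missed the unadjusted threshold with the replicate block and without WT library 1, WT library 2 or *Ltf*-KO library 2.

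For single genes the sign of the log2 fold change held under every alternative for 12 of 40 and turned in at least 1 for 28, none of them called. It turned to -0.0011 (*Ube2c*) and -0.0062 (*Anln*) with median-of-ratios scaling and to -0.0026 (*Hmmr*) and -0.0021 (*Cdc25c*) with quantile scaling. With a library left out it ranged as follows: *Cdk1* -0.080 to 0.014, *Ube2c* -0.035 to 0.048, *Top2a* -0.066 to 0.017, *Cdc20* -0.015 to 0.060, *Cenpa* -0.10 to 0.024, *Prc1* -0.062 to 0.023, *Racgap1* -0.034 to 0.052, *Plk1* -0.037 to 0.022, *Anln* -0.013 to 0.019, *Kif23* -0.017 to 0.16, *Tpx2* -0.049 to 0.017, *Gtse1* -0.055 to 0.0065, *Ckap2* -0.0046 to 0.11, *Mki67* -0.030 to 0.080, *Bub1b* -0.0064 to 0.080, *Nuf2* -0.087 to 0.041, *Ect2* -0.056 to 0.016, *Ckap2l* -0.052 to 0.051, *Kif20b* -0.11 to 0.041, *Nek2* -0.019 to 0.080, *Kif11* -0.070 to 0.049, *Hmmr* -0.023 to 0.057, *Cenpe* -0.029 to 0.16, *Bub1* -0.052 to 0.047, *Kif4* -0.033 to 0.0071, *Nusap1* -0.088 to 0.021, *Cenpf* -0.076 to 0.055, *Cdc25c* -0.055 to 0.11. The cause was not tested. The labels share replicate numbers between genotypes, but deviations of same-numbered libraries correlated at -0.041, -0.058 and -0.088, so the numbers were not taken as pairs. The replicate block left the members' counts past either threshold at 0 and changed no call of a member. TPM gives no depth, so counting error is unknown.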
